A study of Mus musculus with 6 samples.

Results

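Integrins and laminins, the receptors and one of the matrix ligands by which cells hold on to a basement membrane, were followed in libraries labelled heart from tumour-bearing mice given recombinant MANF (mesencephalic astrocyte-derived neurotrophic factor, rMANF) or vehicle. The members were found by their gene symbols and comprise 37 of the 23494 genes listed: 26 integrin chain genes and 11 laminin chain genes. The leukocyte integrin genes Itgal, Itgam, Itgax and Itgb2 were kept apart from the other 33. All 6 libraries came from female wild type C57BL/6 mice that carried subcutaneous B16F10 cells, a transplantable mouse melanoma line. Injections started when tumours averaged about 60 mm3, and 8 mice were randomised to each group. The vehicle group (3 libraries) received phosphate-buffered saline, although the column names of these samples begin with IgG, and the rMANF group (3 libraries) received 2 µg/kg rMANF intraperitoneally each day. The sources used here give neither the mice's age nor the length of treatment, nor which of the 8 mice gave a library. Samples of a group are labelled biological replicates, with no animal named, so p-values measure the spread between these samples.

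An integrin is a pair of membrane-spanning chains, alpha and beta, and the pairing sets what it binds. Itgb1 joins most alpha chains and gives receptors for laminin, collagen and fibronectin, whereas Itgb2 pairs with the alpha chains of leukocytes and binds counter-receptors on other cells and complement fragments. Laminins are secreted trimers of an alpha, a beta and a gamma chain that polymerise into the sheet of a basement membrane, where nidogen, perlecan and type IV collagen join them. In heart, basement membranes surround every cardiomyocyte and capillary, and laminin containing the Lama2 chain and the receptor chain Itga7 are typical of muscle cells.

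Levels are TPM (each gene's share of a library's transcripts, corrected for length), so sequencing depth is unknown and the number of libraries limits the precision. Markers of heart muscle cells were low: 9 of the 10 listed had a row and summed to 7.49 to 32.3 TPM under vehicle and 7.53 to 10.7 TPM under rMANF. None was at 0 in every library, with Nppa at most 0.541 TPM and Pln at most 0.0432 TPM. Tnnt2 had the highest mean of the list, at 4.86 to 11.5 TPM under vehicle and 5.95 to 8.30 TPM under rMANF. Myl2 reached 14.9 TPM in vehicle replicate 2. Values this low do not bear out the label heart, so the libraries are called by that label only. Their tissue was not established here. Skeletal muscle markers (12 of 12 with a row, none at 0 in every library) summed to 27.5 to 1242 TPM under vehicle and to 7.13 to 19.6 TPM under rMANF, the highest sum standing in vehicle replicate 2. The melanoma markers Mlana, Tyr, Tyrp1 and Dct were not among the rows analysed here, and Pmel, Sox10 and Mitf summed to 7.96 to 12.6 TPM under vehicle and 7.44 to 10.2 TPM under rMANF. Nearly all of that sum came from Mitf (7.93 to 12.2 and 7.36 to 10.2 TPM), with Pmel at most 0.341 TPM and Sox10 at most 0.160 TPM.

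The 4 leukocyte integrin genes lay lower in the libraries labelled rMANF, and the 6 laminin genes abundant enough to test and some of their receptors lay higher, by amounts that did not pass the test across all genes. Of the 37 members 23 reached a mean of 1 TPM over the 6 libraries and were tested, and each of these had a mean above 1 TPM in both groups. The linear model of limma, with Benjamini-Hochberg adjustment over all 12865 tested genes, called 0 members at an adjusted p of 0.05, where it called 0 of all genes (0%). At an unadjusted p under 0.05, 8 members lay higher (13.9% of all genes) and 2 lower (6.63%). At an adjusted p under 0.10 it called 2 members higher (Itga3 and Lamb2; 1.94% of all genes) and 0 lower (0.793%). The groups did not overlap for 12 of the 23 tested members (28% of all tested genes): 8 lay wholly higher with rMANF (18.9%) and 4 wholly lower (9.02%). After median-of-ratios scaling, which sets the libraries to a common centre, those shares were 16.6% and 13.2% of all genes, and 7 and 3 members. Among the 8 were Itga3, Itga5, Itgb5, Lama4, Lama5, Lamb2 and Lamc1, and the 4 were Itga4, Itgam, Itgax and Itgb2.

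**Figure D1:**
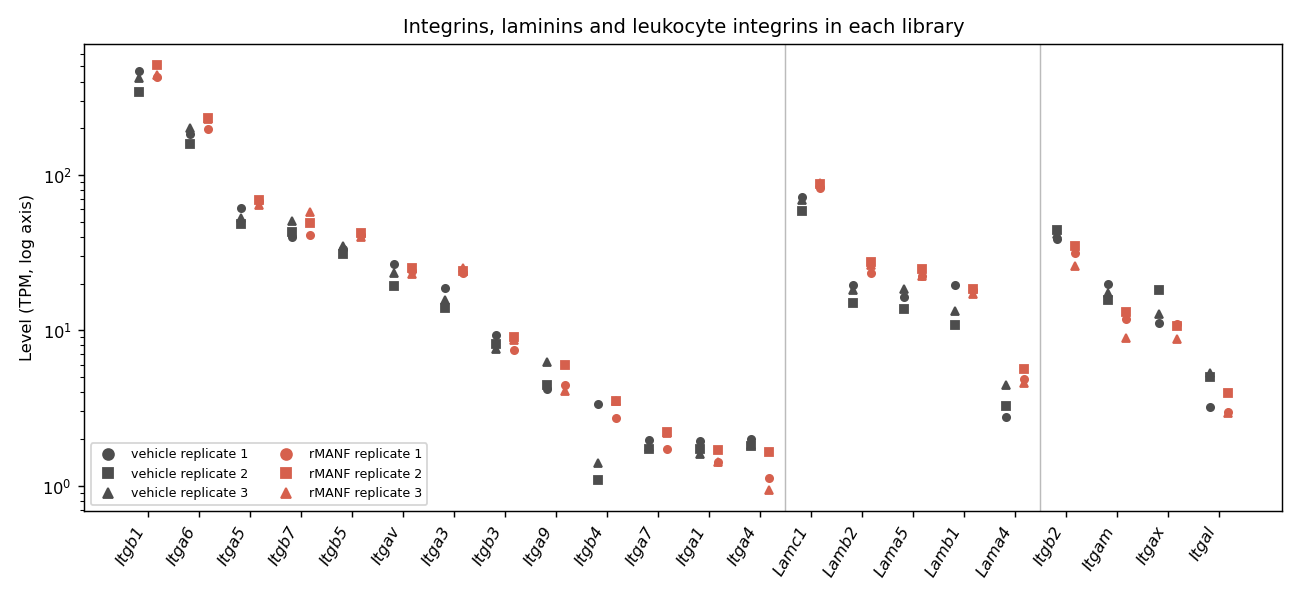
Level of the tested members described here in each library (TPM, log axis), vehicle in grey and rMANF in red, with 1 symbol shape per replicate number. Vertical lines part integrins, laminins and the leukocyte integrins, and Itgb1, at 343 to 509 TPM, stands highest.

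Promoters of members from the opposite sides of this comparison are shown because Itgam and Itgax lay lower and Itga3 and Lama5 higher. RefSeq promoters (250 bases before to 50 after a start site, GRCm38.p6) were found for 23 of the 37 members, and Itgb2, Itgal and Lamc1 were not among them. Capitals mark GAGGAA, the core letters bound by the myeloid factor PU.1, and GGGCGG, the GC box bound by Sp1, each on either strand, and no matches overlapped. GAGGAA was held by 28.28% and GGGCGG by 35.66% of all 32851 promoters, and by 53.85% and 46.15% of the 26 member promoters.
Itgam, chr7:128062390-128062689, plus strand: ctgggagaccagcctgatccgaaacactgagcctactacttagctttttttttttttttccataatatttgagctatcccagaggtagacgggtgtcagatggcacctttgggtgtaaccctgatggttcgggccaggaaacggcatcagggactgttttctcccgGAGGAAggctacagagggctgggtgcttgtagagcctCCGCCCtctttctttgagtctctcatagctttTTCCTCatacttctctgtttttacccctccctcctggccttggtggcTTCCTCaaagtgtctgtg
Itgax, chr7:128129300-128129599, plus strand: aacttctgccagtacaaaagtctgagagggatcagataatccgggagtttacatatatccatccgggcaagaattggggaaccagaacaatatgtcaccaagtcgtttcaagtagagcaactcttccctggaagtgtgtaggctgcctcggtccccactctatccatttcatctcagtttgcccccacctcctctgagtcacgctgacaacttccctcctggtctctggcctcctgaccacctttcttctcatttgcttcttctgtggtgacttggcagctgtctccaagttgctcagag
Itga3, chr11:95076665-95076964, minus strand: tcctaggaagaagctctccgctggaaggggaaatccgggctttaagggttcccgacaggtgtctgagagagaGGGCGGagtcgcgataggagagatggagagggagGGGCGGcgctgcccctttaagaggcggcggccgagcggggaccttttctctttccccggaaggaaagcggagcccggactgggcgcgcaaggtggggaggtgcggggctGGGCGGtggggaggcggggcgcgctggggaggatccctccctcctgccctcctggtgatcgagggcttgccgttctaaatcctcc
Lama5, chr2:180225810-180226109, minus strand: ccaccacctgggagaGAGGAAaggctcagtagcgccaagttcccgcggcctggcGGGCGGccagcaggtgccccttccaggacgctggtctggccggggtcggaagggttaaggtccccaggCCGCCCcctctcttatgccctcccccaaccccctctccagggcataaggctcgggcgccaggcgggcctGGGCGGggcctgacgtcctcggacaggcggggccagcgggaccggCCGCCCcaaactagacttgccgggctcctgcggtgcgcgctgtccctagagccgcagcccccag
The Itgam window held 3 matches to GAGGAA and 1 to GGGCGG, and the Itgax window held 0 of either. The Itga3 window shown, the upstream one of 2 listed, held 3 matches to GGGCGG and 0 to GAGGAA, and its second window (chr11:95069149-95069448) held 1 of each. At Lama5 there were 4 matches to GGGCGG and 1 to GAGGAA. The share of G or C was 50.33% for Itgam, 50% for Itgax, 66.67% and 52.33% for the first and second windows of Itga3 and 72.67% for Lama5. The windows shown were picked and do not stand for either side, since some that are not shown ran otherwise. That of Lamb2, higher with rMANF, had 44% G or C, 1 match to GAGGAA and 0 to GGGCGG. That of Itga4, lower with rMANF, had 64.33% G or C, 0 matches to GAGGAA and 1 to GGGCGG. These matches are letters in a window and not measured binding.

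Among the leukocyte integrins Itgb2, the beta chain that all of them share (chromosome 10, 77530252 to 77565708, GRCm38), was the most abundant. It measured 38.8, 44.2 and 41.5 TPM in vehicle replicates 1, 2 and 3 and 31.6, 34.8 and 25.9 TPM in rMANF replicates 1, 2 and 3. Every rMANF library lay below every vehicle library, with means of 41.5 ± 2.70 and 30.8 ± 4.49 TPM (SD, n = 3 each). The difference, rMANF minus vehicle on log2(TPM + 1), was −0.43 ± 0.12 (SE; limma, adjusted p = 0.128).

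Itgam, which encodes CD11b, the alpha chain of the complement receptor on macrophages and neutrophils (chromosome 7, 128062640 to 128118491), measured 19.96, 15.8 and 17.4 TPM under vehicle and 11.8, 13.1 and 8.96 TPM under rMANF. The groups did not overlap, and this was the largest difference among the 23 tested members, at −0.62 ± 0.15 on the log2 scale (limma, adjusted p = 0.1097). Itgax, the CD11c chain of dendritic cells and some macrophages, starts 11.1 kb beyond the end of Itgam on the same strand (128129547 to 128150657). Its values were 11.1, 18.1 and 12.7 TPM under vehicle and 10.9, 10.7 and 8.75 TPM under rMANF, so vehicle replicate 1 lay next to the rMANF libraries and vehicle replicate 2 far above them. The Itgax difference of −0.41 ± 0.18 (limma, adjusted p = 0.251) was −0.22 without vehicle replicate 2, and the groups overlapped after median-of-ratios or quantile scaling. Itgal, the CD11a chain of lymphocytes and other leukocytes (chromosome 7, 127296260 to 127335138), measured 3.22, 4.99 and 5.27 TPM under vehicle and 2.97, 3.96 and 2.92 TPM under rMANF. These groups overlapped through vehicle replicate 1 (−0.35 ± 0.19; limma, adjusted p = 0.356). Itgad, the last gene of this stretch of chromosome 7, was listed at 0 in all 3 vehicle libraries and in rMANF replicate 1 while rMANF replicates 2 and 3 held 0.0634 and 0.0214 TPM.

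Summed, the 4 leukocyte integrins gave 73.0, 83.0 and 76.9 TPM under vehicle and 57.2, 62.6 and 46.5 TPM under rMANF, and no rMANF sum reached a vehicle sum. General leukocyte markers moved with them: all 6 listed had a row, none was at 0 in every library, and they summed to 651 to 934 TPM under vehicle and 403 to 584 TPM under rMANF. Macrophage and monocyte markers (10 of 10 with a row, none at 0 in every library) summed to 2427 to 2564 and 1221 to 1786 TPM. T and NK cell markers (8 of 8) summed to 33.4 to 88.9 and 17.8 to 31.7 TPM, although Cd247 of that list lay higher with rMANF without overlap. Neutrophil markers (6 of 6) overlapped, at 20.9 to 205 and 14.8 to 31.0 TPM. Their highest sum stood in vehicle replicate 1, mostly from S100a8 (67.0 TPM) and S100a9 (119.7 TPM). Dendritic cell markers (6 of 6) also overlapped, at 5.37 to 7.99 and 5.68 to 6.53 TPM, and none of these 3 lists had a member at 0 in every library. In whole tissue, fewer cells of a type and less RNA per cell cannot be told apart.

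Set against Ptprc, which encodes the leukocyte surface phosphatase CD45, the groups overlapped for all 4 leukocyte integrins. Ptprc measured 34.9 ± 0.488 TPM under vehicle and 25.0 ± 6.37 TPM under rMANF. The ratio of Itgb2 to Ptprc was 1.10, 1.29 and 1.18 with vehicle and 1.30, 1.10 and 1.36 with rMANF, so the order seen in TPM was gone. For Itgam the ratio was 0.566, 0.459 and 0.495 with vehicle and 0.485, 0.413 and 0.469 with rMANF. Against the macrophage and monocyte marker sum Itgb2 stood at 1.60% to 1.72% with vehicle and 1.77% to 2.21% with rMANF, higher in every rMANF library, whereas the groups overlapped for Itgal, Itgam, Itgax and the sum of the 4. Most of that marker sum came from Lyz2 (means of 972 and 562 TPM) and Fcer1g (576 and 314 TPM). Of the 10 markers 7 lay lower without overlap, and Csf1r, Cd14 and Tyrobp overlapped. The part of Lyz2 and Fcer1g in the Itgb2 share was not tested.

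**Figure D2:**
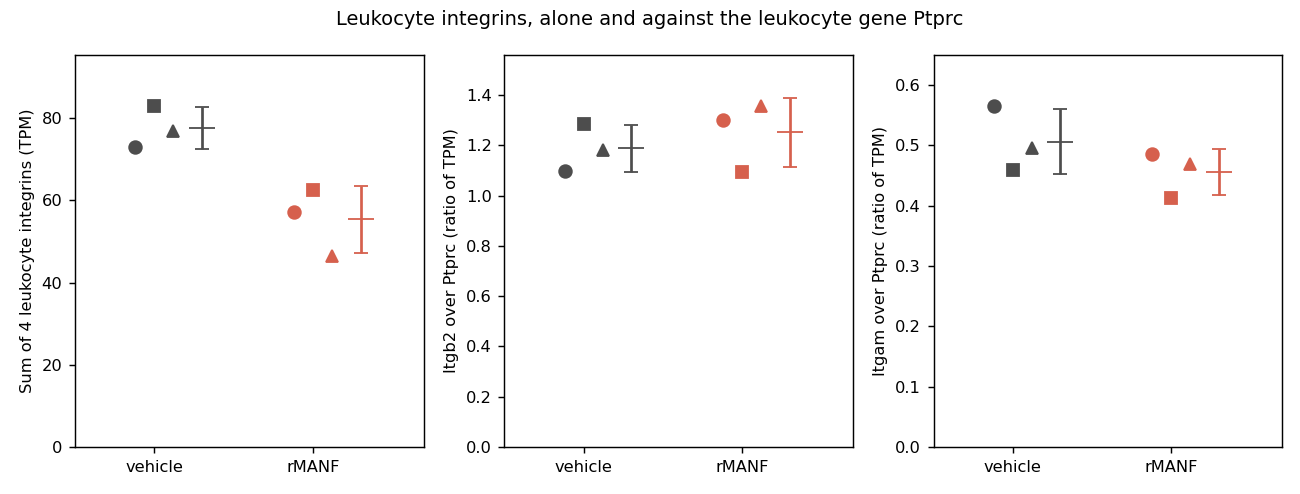
Left, the summed level of Itgal, Itgam, Itgax and Itgb2 (TPM), and centre and right, the ratios of Itgb2 and Itgam to Ptprc, in 3 vehicle (grey) and 3 rMANF (red) libraries, with the mean and SD beside the points. The sums run from 73.0 to 83.0 TPM under vehicle and from 46.5 to 62.6 TPM under rMANF, whereas the ratios overlap.

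Of the alpha chains that bind laminin, Itga6 dominated and Itga3 differed most. Itga6 (chromosome 2, 71745616 to 71858416), a chain of the laminin receptors of epithelium and endothelium, measured 183, 159 and 202 TPM under vehicle and 199, 234 and 229 TPM under rMANF, the groups overlapping by a narrow margin between vehicle replicate 3 and rMANF replicate 1. Its difference was 0.29 ± 0.11 (limma, adjusted p = 0.201). Itga6 alone made up 54.3% to 61.5% of all alpha chain TPM.

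Itga3 (chromosome 11, 95044474 to 95076801), whose product with Itgb1 binds laminins of epithelial basement membranes, measured 18.8, 13.8 and 15.7 TPM under vehicle and 23.4, 24.2 and 25.1 TPM under rMANF. The groups stood clearly apart, and at 0.57 ± 0.12 Itga3 had the smallest adjusted p of all members (limma, adjusted p = 0.0947). Its share of alpha chain TPM was 4.57% to 5.56% with vehicle and 6.14% to 6.73% with rMANF. That total includes Itgam, Itgax, Itgal and Itga4, whose means lay lower with rMANF. The ratio of Itga3 to Itga6 was 0.0777 to 0.1025 with vehicle and 0.1035 to 0.1178 with rMANF, apart by a narrow margin. Neither ratio takes account of the base composition described below. Itga7, the muscle-type laminin receptor chain, stayed at 1.71 to 2.21 TPM in all 6 libraries (0.10 ± 0.17; limma, adjusted p = 0.784).

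Chains that bind the RGD tripeptide of fibronectin and vitronectin, Itga5 and Itgav, were both well expressed. Itga5, of the main fibronectin receptor (chromosome 15, 103344286 to 103366763), measured 61.4, 48.5 and 53.0 TPM under vehicle and 67.7, 69.0 and 63.6 TPM under rMANF. The groups did not overlap, rMANF lying higher by 0.30 ± 0.10 (limma, adjusted p = 0.168). Itgav, a partner of several beta chains, lay at 19.2 to 26.9 TPM under vehicle and 23.0 to 25.1 TPM under rMANF, and its difference was 0.07 ± 0.13 (limma, adjusted p = 0.811). Itga2b, the platelet chain, was too low to test, at 0.330 to 0.596 TPM under vehicle and 0.716 to 0.790 TPM under rMANF, with no overlap (exact two-sided permutation p = 0.1, the smallest that 3 against 3 allows). Other platelet and megakaryocyte markers (7 of 8 with a row, none at 0 in every library) summed to 107 to 155 and 58.8 to 101 TPM, nearly all of it from Pf4 alone (106 to 154 and 57.6 to 98.8 TPM), and their part in the Itga2b values was not tested.

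The collagen-binding chains were scarce. Itga1 reached 1.41 to 1.95 TPM (−0.13 ± 0.17; limma, adjusted p = 0.712), and Itga2, Itga10 and Itga11 had means of 0.222, 0.883 and 0.0629 TPM. Itga4, a chain of leukocyte receptors for Vcam1 and fibronectin (chromosome 2, 79255426 to 79333123), measured 1.99, 1.81 and 1.82 TPM under vehicle and 1.12, 1.65 and 0.935 TPM under rMANF, lower in every rMANF library (−0.37 ± 0.19; limma, adjusted p = 0.320). This was the only tested member outside the leukocyte 4 whose rMANF values all lay below the vehicle values. Its relative Itga9 overlapped between groups, at 4.22 to 6.26 and 4.09 to 5.98 TPM.

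Among the beta chains Itgb1, common to most matrix receptors (chromosome 8, 128685654 to 128733200), was by far the most abundant, at 465, 343 and 423 TPM under vehicle and 426, 509 and 439 TPM under rMANF. It made up 72.9% to 78.8% of beta chain TPM. The groups overlapped, vehicle replicate 2 lying lowest, and the difference of 0.17 ± 0.13 (limma, adjusted p = 0.498) was 0.04 without that library. Itgb5, a partner of Itgav in a vitronectin receptor (chromosome 16, 33829665 to 33949338), measured 33.2, 31.0 and 34.9 TPM under vehicle and 40.8, 42.3 and 40.0 TPM under rMANF. Its replicates were tight and its groups did not overlap (0.31 ± 0.08; limma, adjusted p = 0.124).

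Itgb7 (chromosome 15, 102215995 to 102231944), the beta chain of gut-homing lymphocytes, was the fourth most abundant integrin gene, at 40.1, 43.0 and 50.5 TPM under vehicle and 41.2, 49.4 and 57.6 TPM under rMANF. Its groups overlapped (0.14 ± 0.14; limma, adjusted p = 0.615), unlike those of the leukocyte integrins Itgb2, Itgam and Itgax. Its known alpha partners were far scarcer, Itga4 at 0.935 to 1.99 TPM and Itgae at 0.146 to 0.575 TPM. The ratio of Itgb7 to Itga4 was 20.1 to 27.7 with vehicle and 29.9 to 61.6 with rMANF. Itgb3, of the vitronectin and fibrinogen receptors, measured 7.56 to 9.34 TPM under vehicle and 7.50 to 9.09 TPM under rMANF, a difference of 0.01 ± 0.12 (limma, adjusted p = 0.963). Itgb4, the partner of Itga6 in hemidesmosomes, measured 3.35, 1.08 and 1.39 TPM under vehicle and 2.72, 3.50 and 3.48 TPM under rMANF. Vehicle replicate 1 lay among the rMANF libraries, so the groups overlapped, and the estimate was wide (0.60 ± 0.28; limma, adjusted p = 0.279) and stood at 0.92 without that library. Itgb6 and Itgb8 had means of 0.0383 and 0.0355 TPM.

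**Figure D3:**
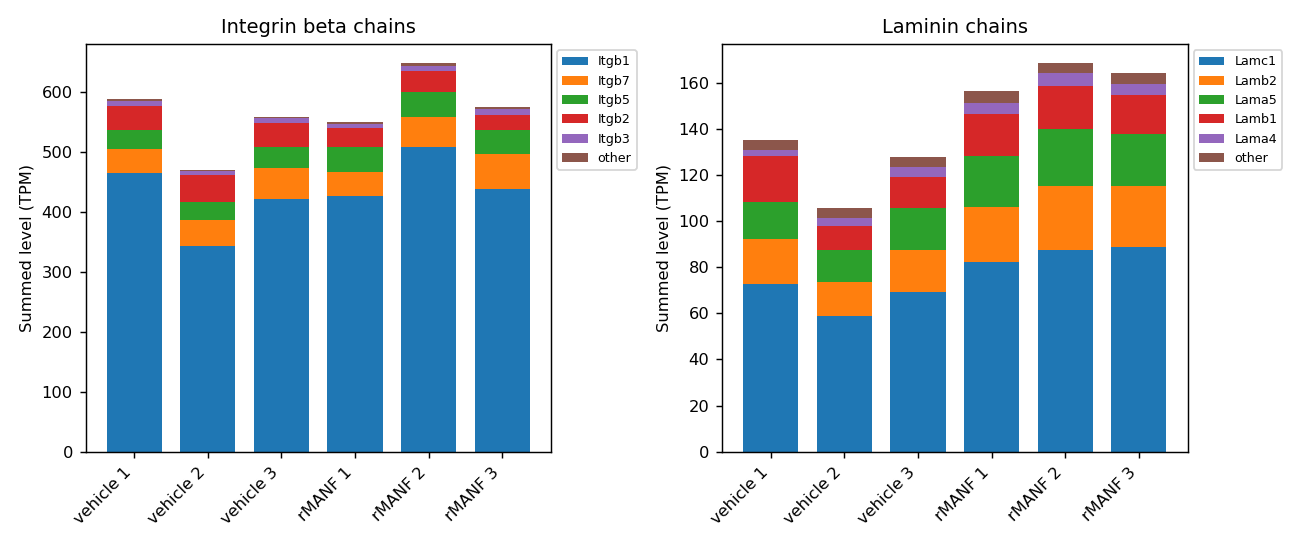
Summed level (TPM) of the integrin beta chains, left, and of the laminin chains, right, stacked by gene for each library. Itgb1 gives 72.9% to 78.8% of the beta chains, and the laminin stacks reach 105 to 135 TPM under vehicle and 157 to 168 TPM under rMANF.

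All 6 tested laminin genes lay higher with rMANF, 5 of them without overlap. Their median difference was 0.40, where the median over all tested genes was 0.04. Lamc1, the gamma chain of most laminins (chromosome 1, 153218922 to 153332786), measured 72.6, 58.7 and 69.1 TPM under vehicle and 82.4, 87.6 and 89.0 TPM under rMANF (0.37 ± 0.10; limma, adjusted p = 0.116). It was the most abundant laminin gene in every library and its groups stood apart.

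Of the beta chains Lamb2, the chain of mature and vascular basement membranes (chromosome 9, 108479736 to 108490530), measured 19.5, 14.9 and 18.3 TPM under vehicle and 23.5, 27.6 and 26.4 TPM under rMANF, with no overlap (0.54 ± 0.12; limma, adjusted p = 0.0986). Lamb1, its more widespread counterpart (chromosome 12, 31265234 to 31329644), measured 19.6, 10.7 and 13.3 TPM and 18.2, 18.4 and 17.0 TPM. Here vehicle replicate 1 lay above every rMANF library, and the difference of 0.32 ± 0.19 (limma, adjusted p = 0.384) was 0.54 without it and 0.14 without vehicle replicate 2. The ratio of Lamb2 to Lamb1 overlapped between groups, at 0.995 to 1.39 and 1.29 to 1.55.

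Lama5, the alpha chain of endothelial and epithelial laminins (chromosome 2, 180176373 to 180225859), measured 16.3, 13.7 and 18.5 TPM under vehicle and 22.3, 24.7 and 22.3 TPM under rMANF, with no overlap (0.50 ± 0.12; limma, adjusted p = 0.107). It made up 79.0% to 83.6% of laminin alpha chain TPM. Lama4, the other alpha chain of vessel walls (chromosome 10, 38965515 to 39110188), measured 2.78, 3.27 and 4.42 TPM and 4.85, 5.67 and 4.57 TPM, the highest vehicle value lying just under the lowest rMANF value (0.44 ± 0.17; limma, adjusted p = 0.205). Lama2, the muscle chain, was under the limit for testing at 0.238 to 0.396 TPM under vehicle and 0.158 to 0.232 TPM under rMANF, and lay lower without overlap (exact two-sided permutation p = 0.1). Lama1, Lama3, Lamb3 and Lamc3 had means of 0.00687, 0.0757, 0.0773 and 0.220 TPM, so these chains were listed at or near 0 in both groups.

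Laminin TPM summed to 135, 105 and 128 with vehicle and 157, 168 and 164 with rMANF, and the integrins other than the leukocyte 4 to 854, 678 and 824 TPM and 844, 980 and 901 TPM. The integrin sums overlapped and the laminin sums did not. Within each library the ratio of laminin to integrin TPM was 0.158, 0.156 and 0.155 with vehicle and 0.186, 0.172 and 0.182 with rMANF. That ratio was nearly constant among the vehicle libraries although their laminin sums ranged from 105 to 135 TPM, and each rMANF library exceeded it. Endothelial markers (8 of 8 with a row, none at 0 in every library) gave overlapping sums, 84.3 to 113 TPM under vehicle and 103 to 128 TPM under rMANF. Of the 8, 3 lay higher without overlap (18.9% of all genes) and 0 lower (9.02%). Egfl7, the most abundant of them, had means of 46.5 and 44.2 TPM. Epithelial markers (6 of 6 with a row, none at 0 in every library) summed to 210 to 285 and 315 to 342 TPM, of which Krt8 alone gave 206 to 283 and 312 to 338 TPM. The part of either list in the laminin values was not tested.

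The base composition of the transcripts moved with some of these differences. Itga3, Lamb2 and Lama5 had 57.3%, 58.6% and 58.1% G or C, whereas Lamc1, Lama4 and Lamb1 had 46.4%, 46.7% and 48.6%. When each library's trend with GC content was removed, Itga3, Lamb2 and Lama5 stood at 0.43, 0.37 and 0.34 and still did not overlap. Lamc1, Lama4 and Lamb1 stood at 0.42, 0.49 and 0.35, no lower than before. Itga5 (56.2% G or C) stood at 0.19 and Itgb7 (56.9%) at 0.01, and the groups then overlapped for Itga5. Itgb2 and Itgam stood at −0.48 and −0.62.

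**Figure D4:**
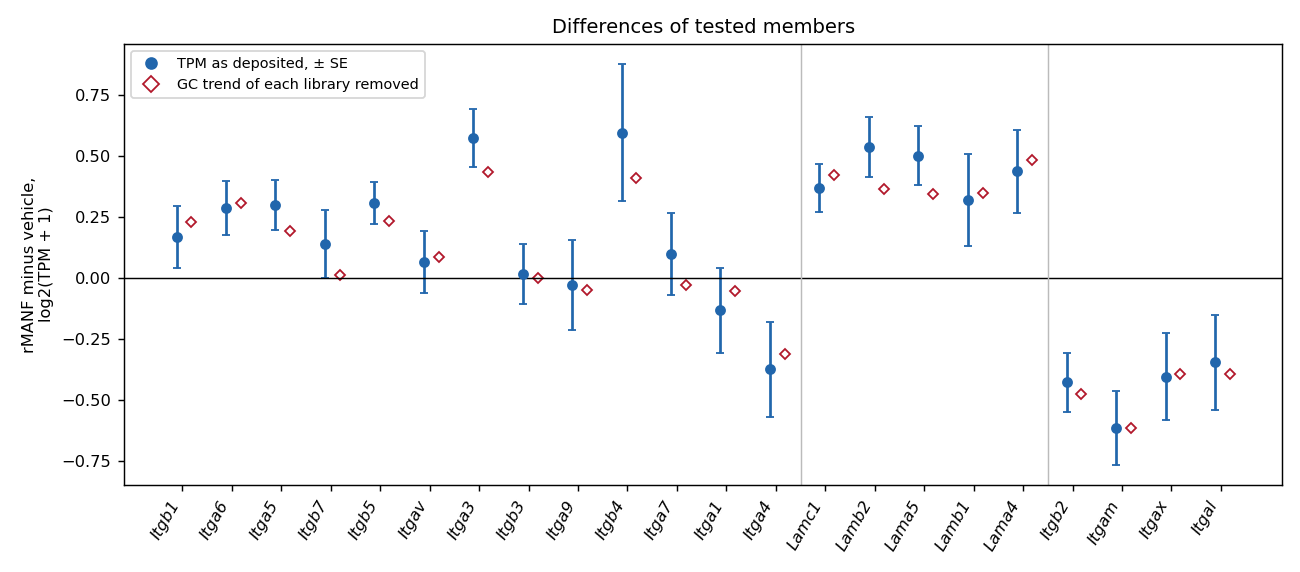
Difference of the tested members described here, rMANF minus vehicle on log2(TPM + 1), as deposited with its SE (blue circles) and with each library's GC trend removed (red diamonds). The 4 leukocyte integrins on the right lie between −0.62 and −0.35, and the 5 laminins shown between 0.32 and 0.54.

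Basement membrane partners and other laminin receptors, a list of 17 genes of which 16 had a row and 14 were tested, lay higher for 13 of 14, with 7 higher and 0 lower without overlap, against 18.9% and 9.02% of all genes. Limma called 0 of them, and their median difference was 0.44, or 0.27 with the GC trend removed. Col18a1, the source of endostatin, measured 66.0 ± 10.1 and 109.7 ± 4.57 TPM (0.74 ± 0.12; limma, adjusted p = 0.0893). Hspg2, which encodes perlecan, measured 30.6 ± 3.98 and 47.1 ± 0.930 TPM and the type IV collagen gene Col4a2 52.5 ± 10.97 and 80.02 ± 5.48 TPM. Their transcripts were rich in G and C at 60.6%, 60.9% and 60.6%, and their differences of 0.74, 0.61 and 0.62 were 0.51, 0.38 and 0.39 with the GC trend removed. The only tested gene of the list with a lower mean was Rpsa, a ribosomal protein also known as a laminin receptor, at 2524 ± 119.7 and 2276 ± 136 TPM. The other abundant genes were Sparc (518 ± 113 and 554 ± 7.42 TPM) and Col4a1 (131 ± 35.5 and 189.8 ± 6.20 TPM).

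Adaptors and kinases that link integrin tails to actin (30 listed, 29 tested) lay higher for 21 and lower for 8, with 12 higher and 2 lower without overlap (18.9% and 9.02% of all genes). Limma called 0, and the median of 0.22 was 0.12 with the GC trend removed. Flna, the actin cross-linker filamin A, measured 187.5 ± 2.83 and 247 ± 9.26 TPM (0.40 ± 0.07; limma, adjusted p = 0.0893), and this difference was 0.34 with the GC trend removed. Src, a kinase of adhesion sites, measured 43.6 ± 4.36 and 59.6 ± 2.25 TPM and the parvin gene Parvb 60.9 ± 5.72 and 77.8 ± 3.65 TPM. Itgb1bp1, which restrains Itgb1 activation, lay lower without overlap (45.7 ± 3.22 and 38.9 ± 3.11 TPM; −0.23 ± 0.10; limma, adjusted p = 0.236). Lower means without a call were also found for the small GTPase genes Rap1a (151.7 ± 33.4 and 129.8 ± 10.95 TPM) and Rap1b (266 ± 41.9 and 245 ± 17.8 TPM) and for Rasgrp2, an exchange factor for Rap1 (1.37 ± 0.0583 and 1.09 ± 0.107 TPM). Actn1, an alpha-actinin gene, was among the most abundant at 214 ± 35.3 and 260.4 ± 3.07 TPM.

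Integrin ligands other than laminins (24 listed, 17 tested) did not share a direction: 7 lay higher and 10 lower, with 2 higher and 5 lower without overlap (18.9% and 9.02% of all genes), a median of −0.05 and 0 calls by limma. Col1a2, a chain of type I collagen, measured 57.3 ± 15.5 and 30.1 ± 9.96 TPM (−0.92 ± 0.26; limma, adjusted p = 0.125), the matrix protein gene Tnc 15.9 ± 4.92 and 8.61 ± 1.36 TPM and Thbs2 9.63 ± 3.03 and 4.93 ± 1.66 TPM. Fibroblast markers (6 of 6 with a row, none at 0 in every library) summed to 222 to 349 TPM under vehicle and 192 to 250 TPM under rMANF, and their part in these values was not tested. Tgfb1, whose latent form binds Itgav receptors, measured 118 ± 11.4 and 150.0 ± 3.94 TPM and Mfge8, a bridge between dying cells and the same receptors, 170 ± 21.5 and 215 ± 5.08 TPM, both higher without overlap (0.35 ± 0.09 and 0.34 ± 0.10; limma, adjusted p = 0.113 and 0.135). Vwf, the platelet adhesion protein of endothelium, measured 1.69 ± 0.385 and 2.65 ± 0.497 TPM, and Spp1, which encodes osteopontin, 188 ± 82.7 and 173 ± 27.4 TPM.

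**Figure D5:**
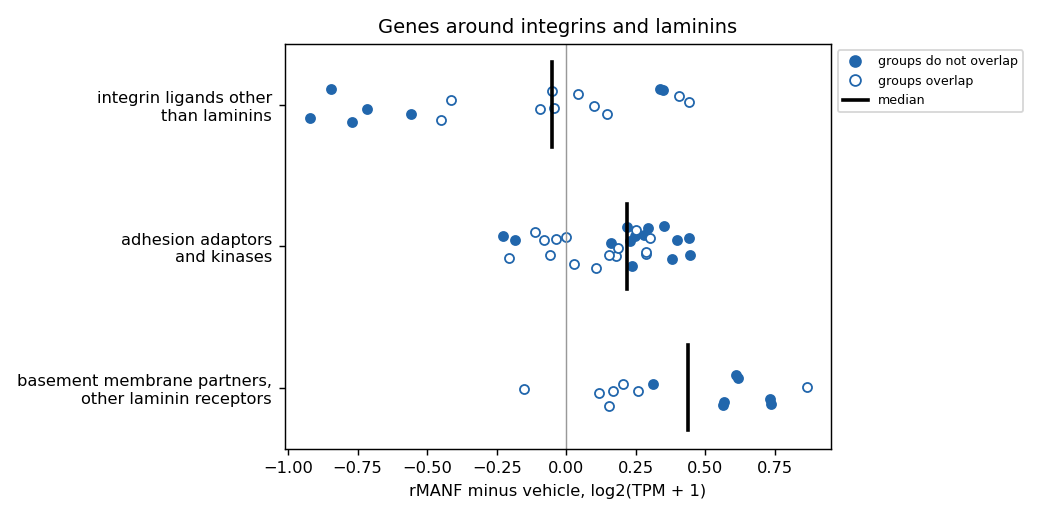
Difference of each tested gene of 3 lists, rMANF minus vehicle on log2(TPM + 1), filled where the groups do not overlap, with the median as a bar (vertical scatter has no meaning). The medians are 0.44 for basement membrane partners, 0.22 for adaptors and kinases and −0.05 for the other ligands.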

How the data were processed

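The authors deposited log2 TPM per gene and library in 1 table, made with cutadapt, fastp, Salmon 0.14.1, HTSeq 0.11.0 and build mm10 per the submitters' processing notes, with annotation and filters not given in the sources used here. Libraries were made from total RNA with the Nextera XT kit, per the labels' protocols. The deposited log2 values were raised to TPM, with −9 taken as 0, and held 0 columns of other samples. Testing covered genes averaging 1 TPM or more on log2(TPM + 1) with limma 3.58.1 in R 4.3.3 (no covariates, variance trend, two-sided, Benjamini-Hochberg, threshold 0.05). The procedure was tried on simulated data whose changes were larger than the difference of any tested member. That trial does not show whether differences of the members' size would be called. TPM keeps no read number, and a change of abundant transcripts shifts all others. Values in every library are given for the leukocyte integrins, the most abundant 5 integrins and 4 laminins and tested members whose groups did not overlap, and for Itgb4 and Itgad, chosen after their values were seen. Of each pathway list up to 3 genes of smallest p per direction and the 3 most abundant are named. A tested member is not reported here by name. Lists and members were chosen with earlier results of these data known. GENCODE M21 (GRCm38, also called mm10) gave coordinates and GC content (median over a gene's transcripts), and RefSeq gave promoters. Alternatives covered pseudocount, filter, scaling, variance trend, block, each library left out and, chosen after seeing the data, subtraction of a loess curve on GC content fitted per library (span 0.5).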

Additional observations from a re-analysis of the deposited data

How the results depend on the processing

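The 17 members that the rule picks for values in every library kept the sign of their difference in all 285 values under the alternatives in which they were tested, and none passed an adjusted p of 0.05 by limma in any. Many of these signs could not change. The filter, the variance trend and the block leave a difference as it is. Leaving out a library cannot reverse a member whose groups do not overlap. At a threshold of 0.10 limma called 2 members, Itga3 and Lamb2, and 351 of all genes. Both members lay above 0.10 without the filter, the variance trend or mitochondrial and haemoglobin genes, with the replicate number as a block, with the GC trend removed (0.138 and 0.165), and when any library other than vehicle replicate 1 was left out, and Lamb2 also with a pseudocount of 5 TPM. The count over all genes at 0.10 was 0 without vehicle replicate 2, rMANF replicate 2, rMANF replicate 3, the variance trend or mitochondrial and haemoglobin genes, 1 without the filter or with the GC trend removed, 3 without rMANF replicate 1, 113 with the block and 971 without vehicle replicate 1. Without the filter the laminin median was 0.18, since genes near 0 then enter it. Leaving out each library gave 0 members called and 12 to 16 members without overlap (8 to 11 higher and 4 to 6 lower). Separated groups stay separated when a library is left out, so these counts without overlap could only stay or rise. The matching shares of all genes are not given. Medians were then 0.34 to 0.48 for laminins, −0.53 to −0.31 for leukocyte integrins and 0.08 to 0.22 for the other integrins. They were 0.29 to 0.52 for basement membrane partners, 0.14 to 0.26 for adaptors and −0.19 to 0.02 for the other ligands. Deviations of vehicle and rMANF samples with the same replicate number correlated at −0.0694, 0.0291 and 0.0495, so the numbers were not taken as pairs, and with the replicate number as a block limma called 0 members and 3 of all genes. Over all genes it called 4 without vehicle replicate 1, 2 without rMANF replicate 1 and 1 with the GC trend removed, against 0 as reported. Depth is unknown, and members under 1 TPM were described only.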
